A study of Mus musculus with 18 samples.

Results

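MHCII+CD11c+ and MHCII+CD11c- macrophages of the mouse synovium, the membrane that lines the joint, were compared without treatment. The 6 libraries used here, of 18 in the experiment, were chosen by their labels alone: 3 of MHCII+CD11c+ cells and 3 of MHCII+CD11c- cells, from adult C57BL/6 mice labelled as controls. The other libraries were of LYVE1+CX3CR1+ macrophages, and of the same 3 subsets 8 h after an intravenous injection of immune complexes (ICs), antibody bound to its antigen. For each library the synovia of 6 legs, from 3 mice, were pooled, digested with collagenase and sorted. RNA was sequenced in bulk, so that a value is an average over all cells that passed the gate. The mice were labelled C57BL/6, with no engineered allele. In bulk RNA, fewer cells of a type and less RNA per cell cannot be told apart.

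Synovial macrophages with MHC class II occupy the tissue beneath the lining, where they take up material that leaves the capillaries and can present peptides to T cells. CD11c, the integrin αX that *Itgax* encodes, pairs with the β2 chain to bind complement fragments and is a customary marker of dendritic cells, although tissue macrophages can carry it too. A gate on MHCII and CD11c can therefore hold macrophages, conventional dendritic cells and cells on the way from monocytes, and their transcripts were examined in both sorts.

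Counts summed to 1589668 to 2172358 in the CD11c+ libraries and to 837439 to 985186 in the CD11c- libraries, a difference in depth that runs with the sort. Levels are given in CPM, counts scaled to a common library size by TMM, for libraries 1, 2 and 3 in that order and, where values stand against each other, CD11c+ before CD11c-. A gene with at most 3 counts in each library of a group was taken to be at the floor there, and its fold is a lower bound. Library 1 of the CD11c- sort stood apart in genes of eosinophil granules: *Prg2*, which encodes major basic protein, was at 679, 6.11 and 0 CPM in the CD11c- libraries and 16.3, 0 and 0 CPM in the CD11c+ libraries. Library 1 of each sort also carried more *Arg1*, with 1311, 241 and 150.5 CPM in the CD11c+ and 1025, 233 and 439 CPM in the CD11c- libraries, and less *Cd163*, with 548, 1213 and 1144 against 742, 1516 and 1318 CPM. Results that rest on either library are given with and without it.

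Macrophage transcripts were checked in both sorts. *Csf1r*, the receptor for the growth factor on which macrophages depend, was at 1434, 1755 and 1635 CPM in CD11c+ and 2224, 2678 and 2610.1 CPM in CD11c- libraries. *Adgre1*, which encodes F4/80, was at 643, 607 and 535 against 792, 757 and 735 CPM. Both genes were abundant in every library and neither passed the test (adjusted p = 0.129 and 0.202), although the 3 CD11c+ libraries lay below the 3 CD11c- libraries for each. Over the 13 genes of the macrophage core list, the summed level was 5409.8 to 5676 CPM in CD11c+ and 6720.3 to 7815 CPM in CD11c- libraries, 1 gene was lower in CD11c+ cells, and the median log2FC was −0.35. Of the 13 genes, 12 had fitted values below 0. Transcripts customary for macrophages were thus present in both sorts, but a bulk average does not tell which cells carried them.

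*Itgax*, *Ccl17* and *Ccl22* mark the CD11c+ sort. CCL17 and CCL22 are chemokines that share the receptor CCR4 and attract T cells. *Itgax* (chromosome 7, 128129526 to 128150657, RefSeq coordinates of GRCm38.p6) was at 304, 240.0 and 265 CPM in CD11c+ libraries and 2.33, 2.44 and 13.3 CPM in CD11c- libraries (log2FC = 5.39 ± 0.51 (SE), adjusted p = 6.5e-07). The sort was made on the protein of *Itgax*, so that its difference is a check of the gate. *Ccl17* (chromosome 8, 94809380 to 94812038) was at 82.0, 59.2 and 59.8 CPM in CD11c+ libraries and had no count in any CD11c- library, which makes it at least 19.7-fold higher in CD11c+ cells (adjusted p = 3.84e-05). *Ccl22* (chromosome 8, 94745684 to 94751388) was at 30.5, 30.9 and 124 CPM against 0, 0 and 1.02 CPM, at least 18.1-fold higher (adjusted p = 0.000255). The bound for *Ccl22* fell to 9.01-fold without CD11c+ library 3. For each of the 3 genes the groups did not overlap and the call was kept in each of the 6 fits that left out 1 library. *Ccl22* was high in library 3 of the CD11c+ sort and lower in libraries 1 and 2. *Ccl17* and *Ccl22* are neighbours on chromosome 8 with *Cx3cl1*, chosen after its values were seen, between them, and *Cx3cl1* was at 3.68, 3.29 and 0.964 CPM in CD11c+ and 0, 1.22 and 3.06 CPM in CD11c- libraries.

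The promoters of these 3 genes are shown because they are the markers of the sort and because the chemokine genes lie together. Each runs from 250 bases before to 50 bases after the start of the transcript chosen in the RefSeq promoter table, on the + strand of GRCm38.p6, and capitals mark matches on either strand to 2 motifs that were searched: the core of PU.1 sites, GAGGAA, a factor of all myeloid cells, and the spacing of STAT6 sites, TTCNNNNGAA, a factor that acts downstream of IL-4. Of 27025 promoters of this length, 28.3% held the former and 6.99% the latter. The *Itgax* promoter (chr7:128129300-128129599) held 1 match to the STAT6 spacing, the *Ccl17* promoter (chr8:94810203-94810502) held 1 match to each motif, and no match to either lay in the *Ccl22* window (chr8:94745434-94745733). For *Itgax* and *Ccl17* that start lies inside the outer bounds of the gene given above. A match is a string of letters and was not tested as a binding site.
Itgax: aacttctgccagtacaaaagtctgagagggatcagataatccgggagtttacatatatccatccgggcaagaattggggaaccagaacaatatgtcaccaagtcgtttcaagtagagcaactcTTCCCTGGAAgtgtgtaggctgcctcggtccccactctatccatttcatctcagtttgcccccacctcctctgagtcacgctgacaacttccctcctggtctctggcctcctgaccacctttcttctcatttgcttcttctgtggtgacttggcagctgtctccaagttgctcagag
Ccl17: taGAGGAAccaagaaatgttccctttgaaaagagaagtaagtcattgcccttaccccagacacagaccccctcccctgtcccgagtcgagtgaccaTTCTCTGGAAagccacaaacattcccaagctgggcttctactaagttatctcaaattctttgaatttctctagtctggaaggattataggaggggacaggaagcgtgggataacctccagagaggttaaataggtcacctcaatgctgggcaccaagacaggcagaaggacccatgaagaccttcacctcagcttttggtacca
Ccl22: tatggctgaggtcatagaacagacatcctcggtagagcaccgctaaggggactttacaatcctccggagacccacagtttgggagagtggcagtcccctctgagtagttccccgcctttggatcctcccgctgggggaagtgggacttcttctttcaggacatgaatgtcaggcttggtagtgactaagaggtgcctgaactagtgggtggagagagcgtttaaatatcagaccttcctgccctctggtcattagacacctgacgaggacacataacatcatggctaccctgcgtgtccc

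The comparison asks how far the 2 MHCII+ subsets differ before any challenge. The quasi-likelihood test of edgeR was used, and a gene was called where its adjusted p was under 0.05. For some genes that were not called, the 2 groups are said not to overlap. How many of all genes tested did not overlap is not given, so that this alone is no sign of a difference. Of 10550 genes tested, 368 (3.49%) differed, 199 (1.89%) higher and 169 (1.60%) lower in CD11c+ macrophages. The change reached 2-fold in 134 of the higher and 107 of the lower genes. The median log2FC (CD11c+ minus CD11c-) was 1.39 among genes called higher, −1.14 among genes called lower and −0.01 over all genes tested. Calls lay mostly among abundant genes: among the 3517 genes with a mean level over 51.4 CPM, 128 were called higher and 111 lower, against 20 and 20 among the 3517 genes under 16.7 CPM. Leaving out 1 of the 6 libraries gave 185 to 422 calls: 217 and 226 without CD11c+ library 2 or 3, 212 and 185 without CD11c- library 2 or 3, and 257 without library 1 of both sorts. The fit drew on all 18 libraries, and without the shallowest, a CD11c- library after IC with 245903 counts, 609 genes were called. In all, 124 genes (68 higher and 56 lower) were called in all 6 fits that left out 1 of the libraries compared. Where a gene below lost its call in one of them, the library is named.

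**Figure D1:**
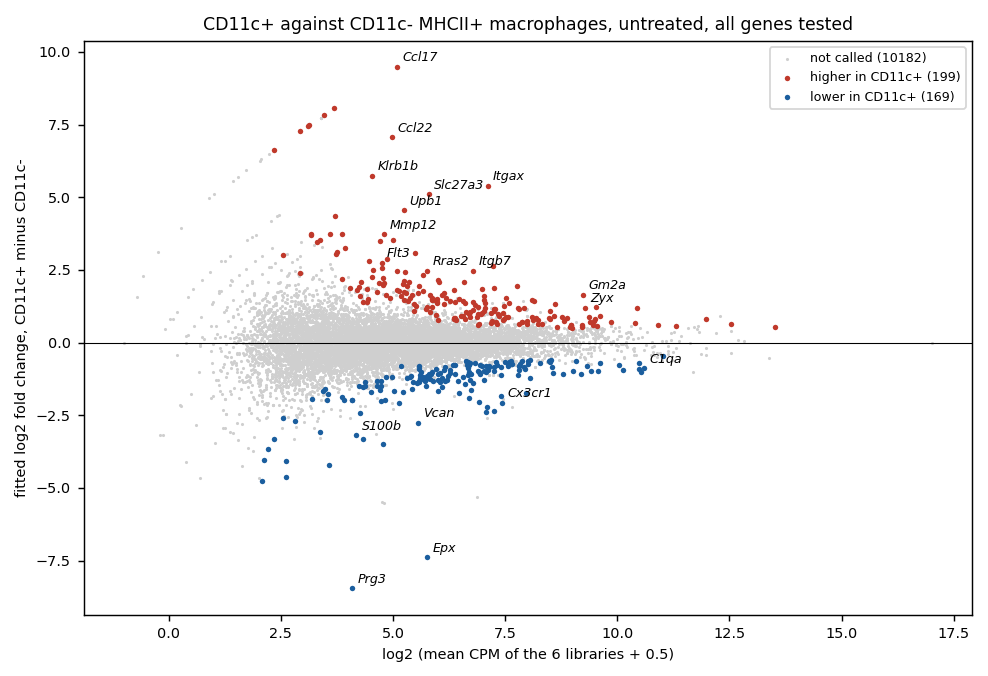
Fitted log2 fold change (CD11c+ minus CD11c-, vertical axis) of each of the 10550 genes tested against the log2 of its mean level in the 6 libraries (CPM + 0.5, horizontal axis). Red points are the 199 genes called higher and blue points the 169 called lower in CD11c+ macrophages; *Ccl17*, *Ccl22*, *Klrb1b*, *Epx* and *Prg3* had a group at the floor, where the fitted value is no bound.

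The genes that were raised most in CD11c+ macrophages had diverse roles and few reads in CD11c- cells. *Slc27a3* (chromosome 3, 90385230 to 90390835), a fatty acid transport protein, was at 95.1, 98.0 and 128 CPM in CD11c+ and 2.33, 7.33 and 0 CPM in CD11c- libraries (log2FC = 5.10 ± 0.52 (SE), adjusted p = 9.65e-07). *Upb1* (chromosome 10, 75406911 to 75441679), an enzyme of pyrimidine breakdown, was at 76.2, 76.3 and 62.7 against 3.49, 0 and 5.11 CPM (log2FC = 4.54 ± 0.59 (SE), adjusted p = 0.000112). *Klrb1b* (chromosome 6, 128813706 to 128826315), a C-type lectin-like receptor, was at 17.3, 58.5 and 58.4 against 0, 0 and 2.04 CPM, at least 13.1-fold higher (adjusted p = 0.000535). Within the CD11c+ sort, library 1 had the least *Klrb1b* and libraries 2 and 3 were alike, and for all 3 genes the groups lay far apart. Signalling and adhesion genes followed. *Wnt11*, a secreted WNT ligand, was at 54.1, 55.2 and 64.6 against 6.98, 3.67 and 4.09 CPM (log2FC = 3.54 ± 0.68 (SE), adjusted p = 0.00265). *Ddr1*, a receptor tyrosine kinase for collagen, was at 36.8, 41.4 and 63.2 against 4.65, 2.44 and 5.11 CPM (log2FC = 3.49 ± 0.64 (SE), adjusted p = 0.00168). Each of these 5 genes was called in every fit that left out 1 library, and so were *Flrt3*, a leucine-rich repeat adhesion protein (2.87), and *Net1*, an exchange factor for RhoA (3.10).

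Next to *Itgax* and *Slc27a3*, some of the smallest p values in the same direction belonged to genes with smaller folds. *Rras2* (chromosome 7, 114046782 to 114117781), a RAS-related GTPase, was at 93.5, 86.1 and 95.0 CPM in CD11c+ and 16.3, 14.7 and 18.4 CPM in CD11c- libraries, 5.52-fold higher (log2FC = 2.47 ± 0.30 (SE), adjusted p = 1.88e-05). *Gm2a*, the activator protein for ganglioside breakdown in lysosomes, was at 960.4, 846 and 938 against 351, 301 and 228 CPM (log2FC = 1.64 ± 0.19 (SE), adjusted p = 6.6e-06). *Hr*, a histone demethylase and nuclear receptor corepressor, was at 265, 240.0 and 273 against 75.6, 33.0 and 16.3 CPM (log2FC = 2.65 ± 0.36 (SE), adjusted p = 9.4e-05). The CD11c- libraries varied more than the CD11c+ ones for *Hr*, and for none of the 3 did the groups overlap. *Cd52*, a small surface glycoprotein of leukocytes, was at 217, 190.0 and 182 against 72.1, 55.0 and 66.4 CPM (log2FC = 1.60 ± 0.22 (SE), adjusted p = 8.29e-05). *Lyz1*, a lysozyme chosen after its values were seen, was at 2241, 1724 and 1818 against 1112, 810.5 and 638 CPM (log2FC = 1.18 ± 0.22 (SE), adjusted p = 0.00195); its near-identical neighbour *Lyz2* could share reads with it. All 5 were called in each of the 6 fits that left out 1 library.

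Some of the largest upward changes rested on few counts. *Mmp12*, macrophage elastase, was at 90.4, 32.9 and 30.4 against 9.30, 0 and 2.04 CPM (log2FC = 3.73 ± 0.99 (SE), adjusted p = 0.0363). The *Mmp12* call was kept only without CD11c+ library 3 or CD11c- library 1 (adjusted p = 0.0523 to 0.183 in the other 4 fits). *Omp* was at 19.4, 30.2 and 28.5 against 3.49, 0 and 2.04 CPM, at least 7.64-fold higher. The *Omp* call was kept only without CD11c+ library 1 or CD11c- library 1 (adjusted p = 0.081 to 0.104 in the other 4 fits). *Sept3*, a septin, was at 23.6, 25.6 and 30.4 against 0, 8.56 and 0 CPM. The *Sept3* call was kept only without CD11c+ library 1 or CD11c- library 2 (adjusted p = 0.0583 to 0.103 in the other 4 fits). *Amica1*, a junctional adhesion receptor of leukocytes, was at 18.4, 17.8 and 32.3 against 1.16, 6.11 and 1.02 CPM. The *Amica1* call was kept only without CD11c- library 2 (adjusted p = 0.0559 to 0.162 in the other 5 fits). For each of these 4 genes the CD11c+ libraries all lay above the CD11c- libraries.

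Lower in CD11c+ macrophages, and so higher in CD11c- macrophages, were a matrix proteoglycan, receptors of resident macrophages and matrix proteins. *Vcan* (chromosome 13, 89655309 to 89743027), the proteoglycan versican, was at 11.03, 11.8 and 13.02 CPM in CD11c+ and 67.4, 77.0 and 99.1 CPM in CD11c- libraries, 6.75-fold lower (log2FC = −2.75 ± 0.26 (SE), adjusted p = 6.5e-07). *Cx3cr1* (chromosome 9, 120048683 to 120068296), the receptor for fractalkine, was at 78.8, 57.9 and 61.7 against 269.7, 291 and 275 CPM (log2FC = −2.07 ± 0.20 (SE), adjusted p = 6.6e-07). *Vsig4* (chromosome X, 96247201 to 96293438), a receptor for complement C3b, was at 67.8, 46.7 and 34.7 against 302, 219 and 240.1 CPM (log2FC = −2.35 ± 0.24 (SE), adjusted p = 7.63e-07). The spread within each sort was small beside the gap for these 3 genes. *Itgb5* (chromosome 16, 33829665 to 33949338), the integrin β5 chain, was at 58.3, 44.0 and 41.0 against 178, 159 and 335 CPM (log2FC = −2.23 ± 0.26 (SE), adjusted p = 1.03e-05). *Sparc*, a matricellular protein, was at 38.4, 55.2 and 37.1 against 351, 132 and 191 CPM (log2FC = −2.38 ± 0.34 (SE), adjusted p = 0.000146). *Olfml3*, a secreted glycoprotein, was at 67.2, 35.5 and 28.0 against 155, 134 and 202 CPM (log2FC = −1.91 ± 0.27 (SE), adjusted p = 0.000146). Library 3 of the CD11c- sort was the highest for *Itgb5* and *Olfml3* and library 1 for *Sparc*, and all 6 genes were called in each fit that left out 1 library.

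Further genes lower in CD11c+ macrophages acted in transport and signalling. *Abcc3*, an efflux transporter, was at 25.7, 52.6 and 43.9 against 139.5, 152 and 117 CPM (log2FC = −1.75 ± 0.23 (SE), adjusted p = 8.08e-05). *Slco2b1*, an organic anion transporter, was at 116, 201 and 164 against 329, 430.3 and 357 CPM (log2FC = −1.22 ± 0.18 (SE), adjusted p = 0.000265). *Pmepa1*, an inhibitor of TGF-β signalling that is itself induced by it, was at 65.7, 34.2 and 40.5 against 202, 145 and 237 CPM (log2FC = −2.05 ± 0.32 (SE), adjusted p = 0.000315). None of the groups overlapped, and *Pmepa1* was highest in CD11c- library 3. *S100b*, a calcium-binding protein best known from glia, was at 7.36, 0.657 and 1.93 against 48.8, 13.4 and 33.7 CPM (log2FC = −3.20 ± 0.63 (SE), adjusted p = 0.00345). *Zbtb10*, a zinc finger protein, was at 10.5, 9.20 and 14.0 against 48.8, 46.5 and 38.8 CPM (log2FC = −1.97 ± 0.40 (SE), adjusted p = 0.00441). *Fmnl3* (−1.53), a formin, and *Emp1* (−0.96), a membrane protein, had the same direction, and each of these 7 genes was called in all 6 fits that left out 1 library. Other calls were less secure. *Itga6*, an integrin chain, differed by −2.01 on the log2 scale (adjusted p = 0.0253). The *Itga6* call was kept only without CD11c+ library 2 or CD11c- library 1 (adjusted p = 0.059 to 0.097 in the other 4 fits). *Gpx3*, a secreted glutathione peroxidase, differed by −1.99 (adjusted p = 0.02). The *Gpx3* call was lost without CD11c+ library 2, CD11c+ library 3 or CD11c- library 2 (adjusted p = 0.0954, 0.102 and 0.176). *Col14a1*, a fibril-associated collagen, differed by −2.09 (adjusted p = 0.0215). The *Col14a1* call was kept only without CD11c+ library 1 or CD11c- library 1 (adjusted p = 0.0509 to 0.187 in the other 4 fits). *Ip6k3*, an inositol phosphate kinase, differed by −1.97 (adjusted p = 0.00542). The *Ip6k3* call was lost without CD11c- library 3 (adjusted p = 0.0565). The predicted genes *Gm20594* (−3.51, adjusted p = 0.0274) and *Gm4980* (−1.98, adjusted p = 0.0412) were lower too. The *Gm20594* call was kept only without CD11c- library 1 or CD11c- library 3 (adjusted p = 0.051 to 0.227 in the other 4 fits). The *Gm4980* call was lost without any 1 of the 6 libraries (adjusted p = 0.0504 to 0.19).

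**Figure D2:**
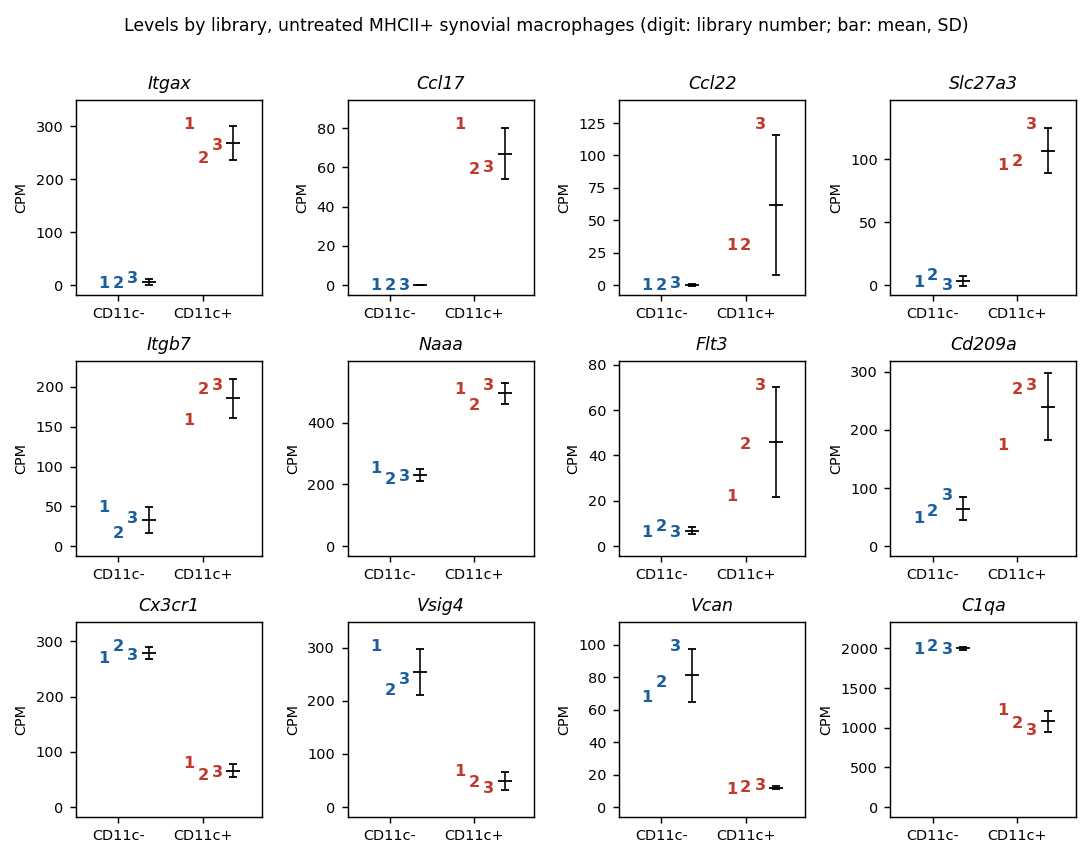
Level (CPM, vertical axes, each from 0) of 12 genes in the 3 CD11c- (blue) and 3 CD11c+ (red) libraries; digits are library numbers, and bars give the mean and SD. The first 8 genes were higher and *Cx3cr1*, *Vsig4*, *Vcan* and *C1qa* lower in CD11c+ macrophages, with no overlap between the sorts in any panel.

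Dendritic cell, monocyte and neutrophil transcripts were taken from 8 marker lists. Of their 119 genes, 99 were tested and 16 were called, 13 higher and 3 lower in CD11c+ macrophages, against 3.49% called over all genes. The counts of every list below stand against the same share. Among the 3517 most abundant genes it was larger, with 128 called higher and 111 lower. Members and lists were chosen with earlier results of these data known, so that a list count above this share is no independent support. All 13 list genes called higher came from the lists of conventional and mature dendritic cells, and the markers *Ccl17* and *Ccl22* are among them. These 2 markers, *Adgrg5*, *Cadm1*, *Fscn1* and *Apol7c* were at the floor in CD11c- libraries. Between the sorts compared, such genes could pass the filter on low counts only through CD11c+ libraries. Their direction is therefore no separate support. The reverse held for *Chil1*, called lower and at the floor in CD11c+ libraries. Fewer list genes were called where at least 10 counts were required in each compared library. Monocyte genes other than *Vcan* did not pass, and neutrophil genes summed to more in the CD11c- sort. The count fell to 10 without CD11c+ library 3, without CD11c- library 2 or without CD11c- library 3, and was 12 without library 1 of both sorts.

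Among 18 genes shared by conventional dendritic cells, 17 were tested, 4 were called higher and none lower, and the median log2FC was 1.18. Their summed level was 649, 738 and 921 CPM in CD11c+ and 476, 435 and 522 CPM in CD11c- libraries, without overlap, and 272 to 319 CPM in untreated LYVE1+CX3CR1+ libraries. *Flt3*, the receptor for the growth factor of dendritic cells, was at 22.1, 44.7 and 70.9 CPM in CD11c+ and 5.81, 8.56 and 6.13 CPM in CD11c- libraries (log2FC = 2.74 ± 0.58 (SE), adjusted p = 0.00732), and had no count in untreated LYVE1+CX3CR1+ libraries. The level of *Flt3* differed widely among the CD11c+ libraries, lowest in library 1 and highest in library 3. The *Flt3* call was lost without CD11c+ library 3 (adjusted p = 0.097). *Zbtb46*, a transcription factor of the conventional dendritic lineage, was at 12.1, 25.6 and 25.1 against 8.14, 4.89 and 9.19 CPM and did not pass (log2FC = 1.47 ± 0.64 (SE), adjusted p = 0.238), though the groups did not overlap. *Dpp4*, the peptidase CD26, was at 35.2, 42.1 and 52.1 against 15.1, 7.33 and 10.2 CPM (log2FC = 1.98 ± 0.53 (SE), adjusted p = 0.0379). The *Dpp4* call was kept only without CD11c- library 1 (adjusted p = 0.066 to 0.158 in the other 5 fits). *Gpr132*, a receptor for lysophospholipids and lactate, was at 74.1, 88.1 and 111 against 39.5, 31.8 and 31.7 CPM (log2FC = 1.41 ± 0.31 (SE), adjusted p = 0.00764). The *Gpr132* call was lost without CD11c+ library 3 or CD11c- library 3 (adjusted p = 0.058 and 0.0534). *Adgrg5*, an adhesion receptor, was at 22.1, 27.0 and 23.6 against 0, 0 and 3.06 CPM, at least 7.11-fold higher (adjusted p = 0.0138). The *Adgrg5* call was lost without CD11c- library 2 (adjusted p = 0.072). Pan-dendritic calls numbered 1 without CD11c+ library 3 and 2 without CD11c- library 2, CD11c- library 3 or library 1 of both sorts. *Kit*, a growth factor receptor found on dendritic cell precursors and mast cells, was near 0 in all 6 libraries (1.58, 5.92 and 1.45 against 2.33, 0 and 7.15 CPM).

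Genes of the cDC1 subset, the dendritic cells that cross-present antigen, were divided. Of 14 genes, 8 were tested and 3 were called higher (*Naaa*, *Cadm1* and *Cd24a*), with a median log2FC of 0.40. *Naaa*, an acid amidase of lysosomes, was at 508, 456 and 521 against 252, 215 and 225 CPM (log2FC = 1.10 ± 0.16 (SE), adjusted p = 0.000157) and was called in each of the 6 fits that left out 1 library. *Cadm1*, an adhesion molecule, was at 10.5, 20.4 and 16.9 against 1.16, 0 and 2.04 CPM, at least 4.67-fold higher (adjusted p = 0.0156). The *Cadm1* call was lost without CD11c+ library 2 or CD11c- library 2 (adjusted p = 0.0636 and 0.0819). *Cd24a* was at 247, 174 and 149 against 90.7, 64.8 and 52.1 CPM (log2FC = 1.46 ± 0.41 (SE), adjusted p = 0.045). The *Cd24a* call was kept only without CD11c- library 1 (adjusted p = 0.0595 to 0.198 in the other 5 fits). Calls of cDC1 genes numbered 1 without CD11c+ library 2, CD11c- library 2 or library 1 of both sorts. The genes that define the subset were near 0 in both sorts. *Xcr1*, the chemokine receptor of cDC1, was at 0.525, 3.29 and 0 against 0, 1.22 and 0 CPM, and *Clec9a*, their receptor for dead cells, was at 0.525, 2.63 and 5.79 against 0, 0 and 1.02 CPM. *Irf8*, the factor on which the subset depends, was at 70.9, 61.8 and 94.0 CPM in CD11c+ and 133, 127 and 110.3 CPM in CD11c- libraries, with the CD11c+ libraries below the others, and did not pass (log2FC = −0.70 ± 0.24 (SE), adjusted p = 0.124). *Batf3*, a further factor of cDC1, did not pass either (log2FC = 0.18 ± 0.57 (SE), adjusted p = 0.929), and its groups overlapped.

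Of 9 genes of the cDC2 subset, which presents antigen chiefly to CD4+ T cells, 8 were tested and 2 were called higher, with a median log2FC of 0.46. *Cd209a*, a DC-SIGN type lectin of monocyte-derived and cDC2 cells, was at 173, 269 and 277 against 47.7, 59.9 and 86.8 CPM (log2FC = 1.88 ± 0.29 (SE), adjusted p = 0.000479). *Tnip3*, an inhibitor of NF-κB, was at 110.3, 132 and 139.9 against 49.996, 28.1 and 31.7 CPM (log2FC = 1.80 ± 0.37 (SE), adjusted p = 0.00465). Both were called in each of the 6 fits that left out 1 library. *Mgl2*, a lectin of cDC2 and macrophages, was at 685, 819.8 and 906 against 489, 615 and 589 CPM (log2FC = 0.51 ± 0.22 (SE), adjusted p = 0.248). *Irf4*, a factor of cDC2, was at 169, 218 and 196 against 150.0, 137 and 108 CPM (log2FC = 0.56 ± 0.21 (SE), adjusted p = 0.158). Neither passed, although for neither gene did the groups overlap.

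Mature dendritic cells that move to lymph nodes express a distinct set of genes, of which 21 were listed and 17 tested. Higher in CD11c+ cells were the markers *Ccl17* and *Ccl22* as well as *Fscn1* and *Apol7c*, *Cd40* was lower, and the median log2FC was 0.34. Fitted values were above 0 for 11 of the genes tested and below 0 for 6. The summed level did not set the sorts apart, at 1141, 1305 and 1599 CPM in CD11c+ and 1188, 1740 and 1618 CPM in CD11c- libraries, with overlap. *Fscn1*, which bundles actin in dendritic protrusions, was at 37.8, 5.26 and 26.5 against 2.33, 2.44 and 3.06 CPM, at least 6.81-fold higher (adjusted p = 0.0121). The *Fscn1* call was lost without CD11c+ library 1, CD11c- library 2 or CD11c- library 3 (adjusted p = 0.0672, 0.059 and 0.0593). *Apol7c*, an apolipoprotein L of dendritic cells, was at 8.93, 3.29 and 30.4 against 0, 0 and 0 CPM, at least 4.17-fold higher (adjusted p = 0.0135). The *Apol7c* call was lost without CD11c+ library 3, CD11c- library 2 or CD11c- library 3 (adjusted p = 0.076, 0.0515 and 0.064), and its bound was 1.79-fold without CD11c+ library 3. Library 2 of the CD11c+ sort was low for both. *Ccr7*, the receptor that guides mature dendritic cells to lymph nodes, was at 29.4, 19.7 and 50.6 CPM in CD11c+ and 40.7, 33.0 and 46.0 CPM in CD11c- libraries, and *Relb* at 42.0, 52.6 and 50.2 against 47.7, 47.7 and 55.2 CPM. Both had overlapping groups and did not pass (adjusted p = 0.806 and 0.962). *Cd40*, a receptor for T cell help, was at 33.1, 25.0 and 39.1 against 93.0, 66.0 and 70.5 CPM (log2FC = −1.23 ± 0.26 (SE), adjusted p = 0.00552), with a call in each of the 6 fits that left out 1 library. Mature dendritic calls numbered 3 without CD11c- library 2, CD11c- library 3 or library 1 of both sorts. Of 8 plasmacytoid dendritic cell genes 4 were tested and none passed, with a median log2FC of −1.20, and *Siglech*, their surface lectin, was at 3.68, 10.5 and 11.1 against 9.30, 33.0 and 7.15 CPM.

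All 16 classical monocyte genes were tested, 1 (*Vcan*) was lower in CD11c+ cells and none was higher, with a median log2FC of −0.57. Of the 16 genes, 12 had fitted values below 0. Their summed level was 11928, 9835 and 9489 CPM in CD11c+ and 9876, 6774 and 7039 CPM in CD11c- libraries, with overlap. Much of these sums was *Fn1*, which encodes fibronectin, with means of 6592 CPM in CD11c+ and 3464 CPM in CD11c- libraries. *Fn1* did not pass (log2FC = 0.93 ± 0.43 (SE), adjusted p = 0.283). *Ly6c2*, which marks monocytes newly arrived from blood, was low in both sorts, at 4.73, 0.657 and 1.93 CPM in CD11c+ and 12.8, 6.11 and 3.06 CPM in CD11c- libraries (log2FC = −1.51 ± 0.86 (SE), adjusted p = 0.422). *Ccr2*, the chemokine receptor that brings monocytes into tissue, was at 779, 778 and 770.1 against 601, 571 and 527 CPM and at 29.0, 23.2 and 31.2 CPM in untreated LYVE1+CX3CR1+ libraries. The MHCII+ groups did not overlap for *Ccr2*, but the difference did not pass (log2FC = 0.45 ± 0.24 (SE), adjusted p = 0.366). *Plac8* was at 13.1, 11.2 and 14.0 against 60.5, 3.67 and 24.5 CPM and *Chil3* at 29.4, 0 and 1.93 against 106, 18.3 and 33.7 CPM, with overlap in each, and neither passed (adjusted p = 0.341 and 0.152). Without CD11c+ library 1, *Chil3* and *Hp*, which encodes haptoglobin, were called lower as well (adjusted p = 0.00692 and 0.042). Classical monocyte calls numbered 2 without library 1 of both sorts and 3 without CD11c+ library 1. None of the 11 nonclassical monocyte genes passed, with a median log2FC of 0.03 (−0.28 with genes at the floor set to their bound). Of these, *Ace*, the angiotensin-converting enzyme, was at 33.6, 17.8 and 26.5 against 44.2, 6.11 and 58.2 CPM, and *Nr4a1*, a factor of patrolling monocytes, at 876, 935 and 1091 against 993, 747 and 1110.4 CPM.

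Neutrophil transcripts were found in both MHCII+ sorts. Over 22 genes of the list, the summed level was 935, 156 and 367 CPM in CD11c+ and 2432, 1059.9 and 1091 CPM in CD11c- libraries, against 25.1 to 31.2 CPM in untreated LYVE1+CX3CR1+ libraries. The CD11c+ libraries differed widely among themselves, library 1 being the highest and library 2 the lowest, but all lay below the CD11c- libraries. Of 18 genes tested, 16 had fitted values below 0, with a median log2FC of −1.87, but only *Chil1* passed, at 1.05, 0 and 0.482 CPM in CD11c+ and 10.5, 3.67 and 9.19 CPM in CD11c- libraries (at least 4.67-fold lower, adjusted p = 0.0339). The *Chil1* call was kept only without CD11c- library 2 (adjusted p = 0.0545 to 0.12 in the other 5 fits). *S100a9*, a calcium-binding protein of neutrophils and monocytes, was at 172, 0.657 and 42.9 against 473, 188 and 175 CPM (log2FC = −1.93 ± 0.74 (SE), adjusted p = 0.176). *Ltf*, the granule protein lactoferrin, was at 81.4, 0 and 33.8 against 391, 166 and 150.2 CPM (log2FC = −2.58 ± 0.76 (SE), adjusted p = 0.062). *Mmp8*, a granule collagenase, was at 11.03, 0 and 1.93 against 26.7, 29.3 and 26.6 CPM (log2FC = −2.60 ± 0.78 (SE), adjusted p = 0.0654). For each of these 3 the CD11c- libraries all lay above the CD11c+ libraries, and the spread among CD11c+ libraries was wide. Without CD11c+ library 1, 7 genes of the list were called lower: *S100a8*, *S100a9*, *Camp*, *Ngp*, *Ltf*, *Lcn2* and *Mmp8* (adjusted p = 0.00456, 0.0174, 0.0345, 0.0472, 0.0258, 0.0449 and 0.0122), whereas *Chil1* was not. Genes of earlier neutrophil stages were seen in that library: *Mpo*, myeloperoxidase, was at 96.1, 0 and 1.45 CPM in CD11c+ and 11.6, 2.44 and 1.02 CPM in CD11c- libraries, and *Elane*, neutrophil elastase, had counts in CD11c+ library 1 alone of the 6 (26.3, 0 and 0 CPM). After IC the list summed to 1381 to 3077 CPM in CD11c+ and 1815 to 5535 CPM in CD11c- libraries, and none of its genes passed. The part of neutrophil RNA in the other results was not tested.

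B cell transcripts that differed were all lower in the CD11c+ sort. Of 10 listed genes 7 were in the count tables, 6 were tested and 4 were lower, among them *Cd79a*, *Fcmr* and *Ms4a1*, with a median log2FC of −1.69. The summed level was 85.6, 80.9 and 111 CPM in CD11c+ and 344, 258 and 322 CPM in CD11c- libraries, and 0 to 2.15 CPM in untreated LYVE1+CX3CR1+ libraries. *Cd79a*, a signalling chain of the B cell receptor, was at 21.5, 34.2 and 35.7 against 123, 66.0 and 101 CPM (log2FC = −1.67 ± 0.36 (SE), adjusted p = 0.00697) and was called in each of the 6 fits that left out 1 library. *Fcmr*, the IgM Fc receptor, was at 16.3, 18.4 and 16.9 against 41.9, 53.8 and 72.5 CPM (log2FC = −1.71 ± 0.36 (SE), adjusted p = 0.00697). The *Fcmr* call was lost without CD11c- library 3 (adjusted p = 0.0675). *Ms4a1*, which encodes CD20, was at 16.8, 17.1 and 28.9 against 74.4, 56.2 and 61.3 CPM (log2FC = −1.60 ± 0.36 (SE), adjusted p = 0.0117). The *Ms4a1* call was lost without CD11c+ library 1 or CD11c+ library 2 (adjusted p = 0.0672 and 0.0679). For none of these 3 did the groups overlap. B cell calls numbered 1 without library 1 of both sorts and 2 without CD11c+ library 1, CD11c+ library 2 or CD11c- library 3. *Jchain*, which antibody-secreting cells use to join IgM and IgA, had no count in any of the 6 libraries. In the libraries after IC the list summed to 91.0 to 102 CPM in CD11c+ and 285 to 418 CPM in CD11c- cells, and *Ms4a1* (−2.03, adjusted p = 0.00345) and *Fcmr* (−2.29, adjusted p = 0.0015) were lower there too. The part of B cell RNA in the other genes higher in CD11c- cells was not tested.

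Transcripts of other cell types varied by list and by library. *Cd3d*, *Cd3e*, *Cd3g*, *Ncr1*, *Klrb1c*, *Gzma*, *Il2rb* and *Skap1*, 8 of 17 T and NK cell genes in the count tables, had no count in any of the 6 libraries. Over the list, T and NK cell genes summed to 148, 124 and 127 CPM in CD11c+ and 119, 57.5 and 89.9 CPM in CD11c- libraries, without overlap. The 3 tested, *Cd2*, *Cd4* and *Il7r*, all had fitted values above 0, with a median log2FC of 0.72, but did not pass. *Cd2*, an adhesion molecule of T and NK cells, was called higher after IC (log2FC = 1.65, adjusted p = 0.019). Mast cell, basophil and eosinophil genes summed to 54.6, 88.1 and 78.1 CPM in CD11c+ and 1262, 28.1 and 225 CPM in CD11c- libraries. *Epx*, eosinophil peroxidase, was at 1.58, 0 and 0 CPM in CD11c+ and 321, 0 and 0 CPM in CD11c- libraries, and *Prg3*, chosen after its values were seen, was at 0, 0 and 0 against 98.8, 0 and 0 CPM. Both were called lower in CD11c+ cells (adjusted p = 0.0174 and 0.042), but their reads came mainly from CD11c- library 1, and without it neither was called (adjusted p = 0.763 and 1). The *Epx* call was kept only without CD11c- library 2 or CD11c- library 3 (adjusted p = 0.0514 to 0.763 in the other 4 fits). The *Prg3* call was kept only without CD11c- library 2 or CD11c- library 3 (adjusted p = 0.109 to 1 in the other 4 fits). Haemoglobin and muscle genes summed to 1339, 379 and 241 CPM in CD11c+ and 2852, 39.1 and 626 CPM in CD11c- libraries, with library 1 the highest of each sort, and none was called. No fibroblast gene (6 tested) and no endothelial or mural cell gene (5 tested) passed, but *Cspg4*, a pericyte proteoglycan, was called lower without CD11c+ library 1 (adjusted p = 0.00242).

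**Figure D3:**
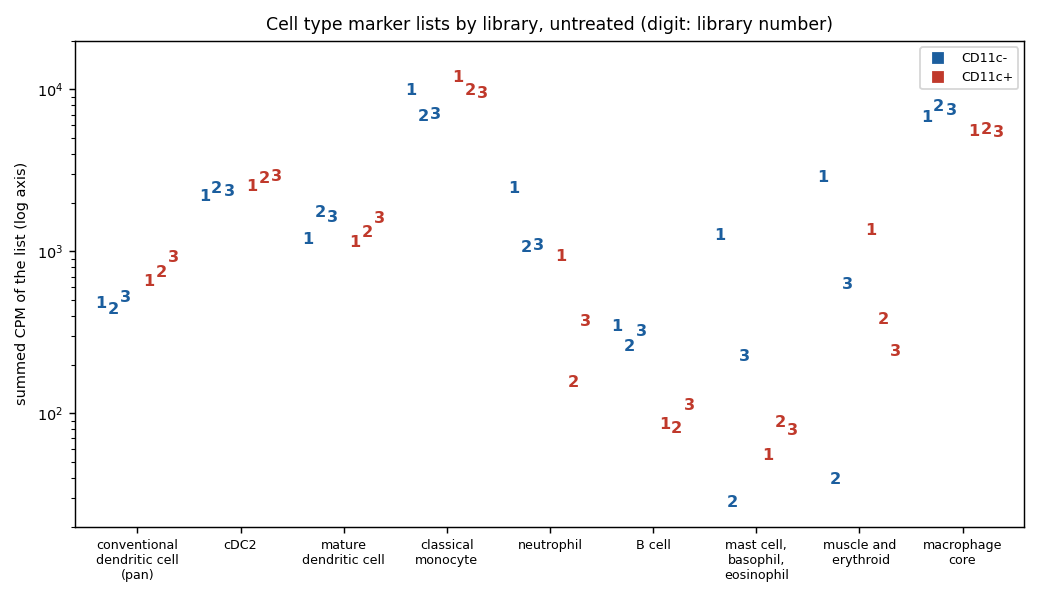
Summed level of 9 cell type marker lists (CPM, log axis) in the 3 CD11c- (blue) and 3 CD11c+ (red) libraries, with digits for library numbers. The sum of conventional dendritic cell genes was higher in each CD11c+ library, those of B cell and neutrophil genes in each CD11c- library, and CD11c- library 1 stood apart in mast cell, basophil and eosinophil genes.

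Resident macrophage genes that differed were mostly higher in CD11c- cells. Of 26 listed genes 9 were lower and 1 (*Fcrls*) higher in CD11c+ macrophages, with a median log2FC of −0.65 against −0.01 over all genes tested. Resident macrophage calls numbered 6 without CD11c- library 2, 14 without CD11c- library 1 and 7 or 8 in the other fits that left out 1 library or library 1 of both sorts. Besides *Vsig4*, *Cx3cr1*, *Sparc* and *Olfml3*, these included *Aqp1*, a water channel, at 139, 118 and 92.6 against 372, 423 and 357 CPM (log2FC = −1.72 ± 0.29 (SE), adjusted p = 0.000792). *Cbr2*, a carbonyl reductase, was at 213, 336 and 293 against 452, 685 and 659.9 CPM (log2FC = −1.10 ± 0.20 (SE), adjusted p = 0.00196). Both were called in each of the 6 fits that left out 1 library. *Lyve1*, a hyaluronan receptor that was also used to gate the third subset, was at 365, 439 and 329 against 702, 806 and 882 CPM (log2FC = −1.08 ± 0.28 (SE), adjusted p = 0.0285). The *Lyve1* call was kept only without CD11c- library 1 (adjusted p = 0.053 to 0.128 in the other 5 fits). *Stab1*, a scavenger receptor, had overlapping groups, at 274, 529 and 583 against 560.4, 1110.0 and 1060.4 CPM (log2FC = −0.98 ± 0.25 (SE), adjusted p = 0.0285). The *Stab1* call was kept only without CD11c+ library 3 or CD11c- library 1 (adjusted p = 0.053 to 0.161 in the other 4 fits). *Maf*, a transcription factor of macrophages, was at 172, 178 and 166 against 256, 329 and 268 CPM (log2FC = −0.72 ± 0.17 (SE), adjusted p = 0.014). The *Maf* call was lost without CD11c+ library 3 or CD11c- library 2 (adjusted p = 0.0705 and 0.0982). *Fcrls*, an Fc receptor-like molecule, went the other way at 1104, 776 and 679 against 512, 484 and 380.0 CPM (log2FC = 0.90 ± 0.22 (SE), adjusted p = 0.0224). The *Fcrls* call was lost without CD11c+ library 1, CD11c- library 2 or CD11c- library 3 (adjusted p = 0.158, 0.0647 and 0.141). *Timd4*, *Folr2*, *Mrc1* and *Cd163* did not pass (adjusted p = 0.213, 0.148, 0.817 and 0.667).

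Complement genes that differed were all lower in CD11c+ macrophages. The 3 chains of C1q, the recognition molecule of the classical pathway, were among them. *C1qa* was at 1221, 1053 and 969 CPM in CD11c+ and 1984, 2027 and 1988 CPM in CD11c- libraries (log2FC = −0.89 ± 0.14 (SE), adjusted p = 0.000415). *C1qb* (log2FC = −1.02 ± 0.16 (SE), adjusted p = 0.000403) and *C1qc* (log2FC = −0.91 ± 0.14 (SE), adjusted p = 0.000316) differed by similar amounts. Besides *Vsig4*, receptors for complement fragments were lower as well. *C3ar1*, the receptor for C3a, was at 265, 270.2 and 205 against 442, 538 and 562 CPM (log2FC = −1.06 ± 0.17 (SE), adjusted p = 0.000535). *C5ar1*, the receptor for C5a, was at 105, 87.4 and 131 against 181, 175 and 229 CPM (log2FC = −0.85 ± 0.19 (SE), adjusted p = 0.00888). The *C5ar1* call was lost without CD11c+ library 2 or CD11c- library 3 (adjusted p = 0.0714 and 0.075), while the C1q genes and *C3ar1* were called in all 6 such fits. Of 22 listed genes 19 were tested, 6 were lower and none higher, with a median log2FC of −0.34. Factors of the alternative pathway did not pass. *Cfp*, properdin, was at 978, 729.7 and 843 against 664, 567 and 465 CPM (log2FC = 0.59 ± 0.23 (SE), adjusted p = 0.187). *Cfb*, factor B, was at 119, 147 and 108 against 89.5, 79.5 and 49.0 CPM (log2FC = 0.78 ± 0.31 (SE), adjusted p = 0.189). In both the CD11c+ libraries lay above the CD11c- libraries.

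Genes of the MHC class II machinery that differed were mostly higher in CD11c+ macrophages. Of 19 genes 18 were tested, 4 were higher and 1 (*Lgmn*) lower, with a median log2FC of 0.31. The chains of H2-DM, which loads peptides onto class II molecules, were higher. *H2-DMa* was at 562, 448 and 505 against 308, 255 and 241 CPM (log2FC = 0.91 ± 0.20 (SE), adjusted p = 0.00702). The *H2-DMa* call was lost without CD11c- library 3 (adjusted p = 0.0562). *H2-DMb1* was at 379, 451 and 533 against 294, 222 and 248 CPM (log2FC = 0.83 ± 0.17 (SE), adjusted p = 0.0039). *H2-DMb2* was at 175, 186 and 189 against 110.5, 72.1 and 60.3 CPM (log2FC = 1.18 ± 0.23 (SE), adjusted p = 0.00264). The *H2-DMb* genes are similar in sequence, so that the split of reads between them is uncertain, and both were called in each of the 6 fits that left out 1 library. *H2-Ab1*, the β chain of I-A, was part of the sort and was at 6629.7, 7030.3 and 7825 against 4745, 4585 and 4548 CPM (log2FC = 0.63 ± 0.16 (SE), adjusted p = 0.0248). The *H2-Ab1* call was kept only without CD11c+ library 1 or CD11c- library 1 (adjusted p = 0.0708 to 0.12 in the other 4 fits). Class II calls numbered 3 without CD11c- library 3. *H2-Eb1* (log2FC = 0.50 ± 0.20 (SE), adjusted p = 0.205) and *Cd74*, the invariant chain (log2FC = 0.55 ± 0.42 (SE), adjusted p = 0.589), had non-overlapping groups in the same direction without passing. *Ciita*, the master regulator of class II transcription, was at 151, 174 and 178 against 215, 167 and 129 CPM and did not pass (log2FC = −0.02 ± 0.22 (SE), adjusted p = 0.982). *Lgmn*, a lysosomal protease, was lower at 701, 865 and 767 against 1060.4, 1428 and 1451 CPM (log2FC = −0.76 ± 0.15 (SE), adjusted p = 0.00465), a call made in all 6 such fits. Of 13 co-stimulation and checkpoint genes tested, *Cd200r1*, an inhibitory receptor, was higher at 87.7, 84.8 and 52.1 against 31.4, 9.78 and 16.3 CPM (log2FC = 1.96 ± 0.39 (SE), adjusted p = 0.0034) and *Cd40* lower.

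Chemokines differed in both directions and their receptors in 1. Of 21 chemokines tested, the markers *Ccl17* and *Ccl22* and also *Ccl8* were higher and *Ccl7* lower in CD11c+ macrophages. The median log2FC was −0.31 (−0.33 with genes at the floor set to their bound). *Ccl8* was at 71.5, 110.4 and 72.3 against 36.0, 35.5 and 21.5 CPM (log2FC = 1.45 ± 0.37 (SE), adjusted p = 0.0253). The *Ccl8* call was lost without CD11c+ library 2, CD11c- library 2 or CD11c- library 3 (adjusted p = 0.137, 0.0613 and 0.146). *Ccl7*, a ligand of CCR2, was at 57.8, 68.4 and 77.2 against 99.99, 186 and 127 CPM (log2FC = −1.02 ± 0.28 (SE), adjusted p = 0.0389). The *Ccl7* call was kept only without CD11c- library 1 (adjusted p = 0.0726 to 0.238 in the other 5 fits). *Ccl2*, a further CCR2 ligand, did not pass (log2FC = −0.79 ± 0.26 (SE), adjusted p = 0.103), and its groups overlapped. Of 10 chemokine receptors tested, *Cx3cr1* and *Cmklr1*, the chemerin receptor, were lower. *Cmklr1* was at 130.3, 177 and 146 against 215, 255 and 286 CPM (log2FC = −0.74 ± 0.20 (SE), adjusted p = 0.0352). The *Cmklr1* call was kept only without CD11c+ library 2 or CD11c- library 1 (adjusted p = 0.0977 to 0.168 in the other 4 fits). Chemokine calls numbered 2 without CD11c+ library 2, CD11c- library 2, CD11c- library 3 or library 1 of both sorts, and those of their receptors 1 without CD11c+ library 1, CD11c+ library 3, CD11c- library 2, CD11c- library 3 or library 1 of both sorts.

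Receptors for growth factors and cytokines gave 4 genes higher and 3 lower of 24 tested. *Csf2ra*, the α chain of the GM-CSF receptor, was at 420.3, 339 and 361 against 251, 182 and 190.0 CPM (log2FC = 0.85 ± 0.20 (SE), adjusted p = 0.0121). The *Csf2ra* call was lost without CD11c+ library 1, CD11c- library 2 or CD11c- library 3 (adjusted p = 0.0609, 0.0798 and 0.0823). *Csf2rb*, its signalling chain, was at 249.6, 273 and 213 against 193, 89.2 and 119 CPM (log2FC = 0.87 ± 0.23 (SE), adjusted p = 0.0284). The *Csf2rb* call was kept only without CD11c+ library 3 or CD11c- library 1 (adjusted p = 0.0727 to 0.175 in the other 4 fits). *Il1rl1*, the IL-33 receptor, was at 87.7, 99.9 and 113 against 34.9, 44.0 and 39.8 CPM (log2FC = 1.34 ± 0.35 (SE), adjusted p = 0.0281). The *Il1rl1* call was kept only without CD11c+ library 1 (adjusted p = 0.0721 to 0.117 in the other 5 fits). For all 3 the CD11c+ libraries lay above the CD11c- libraries. In the other direction, *Tgfbr1*, a chain of the TGF-β receptor, was at 58.8, 57.2 and 43.9 against 87.2, 121 and 129.7 CPM (log2FC = −1.08 ± 0.21 (SE), adjusted p = 0.00339). *Il21r*, the IL-21 receptor, was at 13.7, 17.8 and 14.9 against 29.1, 45.2 and 72.5 CPM (log2FC = −1.67 ± 0.29 (SE), adjusted p = 0.00113). Both were called in all 6 fits that left out 1 library. *Tgfbr2*, the partner of *Tgfbr1*, was also lower (log2FC = −0.64 ± 0.17 (SE), adjusted p = 0.0273). The *Tgfbr2* call was kept only without CD11c+ library 2 or CD11c- library 1 (adjusted p = 0.0673 to 0.148 in the other 4 fits). Cytokine receptor calls numbered 3 without CD11c- library 2 or CD11c- library 3 and 4 without CD11c+ library 1 or CD11c+ library 3.

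Among 41 transcription factors, 2 were higher and 4 lower, with a median log2FC of −0.04. *Klf2*, a zinc finger factor, was at 421, 456 and 508 against 782, 936 and 722 CPM (log2FC = −0.82 ± 0.14 (SE), adjusted p = 0.00123). *Mef2a*, a MADS-box factor, was at 162, 134 and 163 against 298, 304 and 286 CPM (log2FC = −0.95 ± 0.18 (SE), adjusted p = 0.00225). Both were called in each fit that left out 1 library. *Bhlhe40* and *Nr4a3* were higher in CD11c+ cells. *Bhlhe40* was at 707, 473 and 504 against 407, 222 and 290.1 CPM (log2FC = 0.87 ± 0.19 (SE), adjusted p = 0.00934). *Nr4a3*, an orphan nuclear receptor of migrating dendritic cells, was at 197, 214 and 293 against 141, 95.4 and 110.3 CPM (log2FC = 1.02 ± 0.29 (SE), adjusted p = 0.0455). The *Bhlhe40* call was lost without CD11c+ library 1, CD11c- library 2 or CD11c- library 3 (adjusted p = 0.079, 0.0837 and 0.064). The *Nr4a3* call was kept only without CD11c+ library 1 or CD11c- library 1 (adjusted p = 0.0791 to 0.209 in the other 4 fits). Transcription factor calls numbered 2 without CD11c- library 2.

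Integrin chains differed in both directions, whereas actin-related genes that differed were all higher in CD11c+ macrophages. Of 14 integrin chains tested, *Itgax*, on whose protein the sort was made, and *Itgb7* were higher in CD11c+ macrophages. *Itgb5*, *Itgav*, *Itga6* and *Itga9* were lower. *Itgb7* (chromosome 15, 102215994 to 102233405), which pairs with α4 or αE, was at 158, 197 and 202 against 48.8, 15.9 and 34.7 CPM (log2FC = 2.47 ± 0.35 (SE), adjusted p = 0.000147) and was called in each of the 6 fits that left out 1 library. *Itgav*, the partner of β5, was at 131, 73.6 and 99.3 against 183, 144 and 212 CPM (log2FC = −0.82 ± 0.23 (SE), adjusted p = 0.0407). The *Itgav* call was kept only without CD11c+ library 1 or CD11c- library 2 (adjusted p = 0.0713 to 0.201 in the other 4 fits). *Itga9* differed by −1.02 on the log2 scale (adjusted p = 0.0118). The *Itga9* call was lost without CD11c+ library 1, CD11c- library 2 or CD11c- library 3 (adjusted p = 0.055, 0.107 and 0.0593). Integrin calls numbered 3 without CD11c- library 3. *Itgam*, which encodes CD11b, was at 1001, 959.8 and 874 against 871, 825 and 810.1 CPM and did not pass (log2FC = 0.18 ± 0.19 (SE), adjusted p = 0.723). Of 29 actin, annexin and S100 genes, 16 were higher and none lower, with a median log2FC of 0.61; leaving out 1 library gave 8 to 17 calls, with 8 without CD11c- library 3, 10 without CD11c- library 2 and 8 without library 1 of both sorts. *Zyx*, zyxin of focal adhesions, was at 824, 899 and 879 against 417, 337 and 375 CPM (log2FC = 1.20 ± 0.18 (SE), adjusted p = 0.000265). *Cd44*, a hyaluronan receptor linked to the cytoskeleton, was at 1021, 1061 and 987 against 569, 519.5 and 555 CPM (log2FC = 0.90 ± 0.15 (SE), adjusted p = 0.000598). *Actg1*, cytoplasmic γ-actin, was at 5706, 4667 and 5067 against 3361, 2603 and 2779 CPM (log2FC = 0.82 ± 0.14 (SE), adjusted p = 0.000792). *S100a11* was at 184, 233 and 220.4 against 106, 106 and 113 CPM (log2FC = 0.97 ± 0.17 (SE), adjusted p = 0.000899). These 4, *Lsp1*, *S100a10* and *Lgals3* were called in each of the 6 fits that left out 1 library, and in none of the 7 did the groups overlap.

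Lectins, lipid-associated genes and matrix genes differed in both directions. Of 20 C-type lectins tested, *Cd209a* and *Clec4b1* were higher and *Clec5a*, which signals through DAP12, lower, at 26.3, 21.7 and 31.8 against 65.1, 77.0 and 62.3 CPM (log2FC = −1.34 ± 0.21 (SE), adjusted p = 0.000414). *Clec4b1* was at 54.1, 57.9 and 45.3 against 24.4, 12.2 and 8.17 CPM (log2FC = 1.81 ± 0.44 (SE), adjusted p = 0.0174). The *Clec4b1* call was kept only without CD11c+ library 3 or CD11c- library 1 (adjusted p = 0.0581 to 0.116 in the other 4 fits). Of 18 lipid-associated macrophage genes, *Lpl*, lipoprotein lipase, was higher at 694, 531 and 464 against 324, 163 and 179.8 CPM (log2FC = 1.34 ± 0.28 (SE), adjusted p = 0.00519). The *Lpl* call was lost without CD11c- library 2 or CD11c- library 3 (adjusted p = 0.0502 and 0.054). *Lgals3*, galectin-3, was higher (log2FC = 0.85 ± 0.18 (SE), adjusted p = 0.00611). *Trem2*, a lipid receptor, was lower at 56.2, 39.4 and 33.3 against 93.0, 100.2 and 119 CPM (log2FC = −1.27 ± 0.24 (SE), adjusted p = 0.00196), as was *Cd63* (log2FC = −0.76 ± 0.19 (SE), adjusted p = 0.0257). The *Cd63* call was kept only without CD11c+ library 2 or CD11c- library 1 (adjusted p = 0.0963 to 0.186 in the other 4 fits). Lipid-associated gene calls numbered 2 without CD11c- library 2 or CD11c- library 3 and 7 without CD11c- library 1. Among 19 matrix genes tested, the proteases *Mmp12*, *Mmp19* and *Adam8* were higher and *Vcan*, *Sparc*, *Timp2* and *Mmp2* lower. *Mmp19* was at 163, 163 and 133 against 32.6, 46.5 and 30.6 CPM (log2FC = 2.07 ± 0.30 (SE), adjusted p = 0.000204). *Adam8*, a sheddase, was at 429, 321 and 282 against 177, 48.9 and 46.0 CPM (log2FC = 1.93 ± 0.37 (SE), adjusted p = 0.00265). *Timp2*, an inhibitor of metalloproteinases, was lower at 808, 747 and 741 against 1501, 1406 and 1542 CPM (log2FC = −0.95 ± 0.18 (SE), adjusted p = 0.00259). *Mmp2*, a gelatinase with few reads here, was lower at 0.525, 2.63 and 1.93 against 20.9, 4.89 and 8.17 CPM (log2FC = −2.71 ± 0.66 (SE), adjusted p = 0.0187). The *Mmp2* call was lost without CD11c+ library 1, CD11c+ library 3 or CD11c- library 1 (adjusted p = 0.0959, 0.0601 and 0.159). *Mmp19*, *Adam8*, *Timp2*, *Trem2* and *Clec5a* were called in all 6 fits that left out 1 library. Of 18 scavenger and uptake receptors none was higher and *Msr1* and *Stab1* were lower (11.1%, against 3.49% over all genes tested). *Msr1* was at 46.2, 44.7 and 39.1 against 61.6, 99.0 and 81.7 CPM (log2FC = −0.90 ± 0.22 (SE), adjusted p = 0.0178). The *Msr1* call was kept only without CD11c+ library 1 or CD11c- library 1 (adjusted p = 0.0544 to 0.128 in the other 4 fits). Scavenger receptor calls numbered 0 without CD11c+ library 2, CD11c- library 2 or CD11c- library 3, 1 without CD11c+ library 3, 4 without library 1 of both sorts and 5 without CD11c- library 1.

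Cell cycle genes had higher fitted values in CD11c+ cells for 20 of 20 members, with a median log2FC of 0.70 against −0.01 over all genes tested, but only 2 passed. Such genes rise and fall together, so that the 20 are not separate observations. After IC none was called and the median was 0.19. *Mcm5*, of the replicative helicase, was at 54.6, 66.4 and 61.7 against 26.7, 15.9 and 20.4 CPM (log2FC = 1.53 ± 0.38 (SE), adjusted p = 0.021). The *Mcm5* call was kept only without CD11c+ library 1 or CD11c- library 1 (adjusted p = 0.0675 to 0.104 in the other 4 fits). *Rrm2*, of ribonucleotide reductase, was at 38.4, 27.0 and 22.2 against 10.5, 8.56 and 4.09 CPM (log2FC = 1.93 ± 0.51 (SE), adjusted p = 0.0315). The *Rrm2* call was kept only without CD11c+ library 3 or CD11c- library 1 (adjusted p = 0.0695 to 0.167 in the other 4 fits). Cell cycle calls numbered 0 without CD11c+ library 2, CD11c- library 2, CD11c- library 3 or library 1 of both sorts and 1 without CD11c+ library 1 or CD11c+ library 3. *Mki67*, a marker of dividing cells, was at 66.2, 91.4 and 74.7 against 40.7, 33.0 and 19.4 CPM, without overlap, and did not pass (log2FC = 1.32 ± 0.52 (SE), adjusted p = 0.185). Of 19 IL-4 response genes tested, the markers *Ccl17* and *Ccl22* and also *Cish*, an inhibitor of cytokine signalling, were higher and none was lower. *Cish* was at 96.7, 53.3 and 43.9 against 23.3, 26.9 and 12.3 CPM (log2FC = 1.64 ± 0.40 (SE), adjusted p = 0.0174). The *Cish* call was lost without CD11c+ library 1 or CD11c- library 3 (adjusted p = 0.196 and 0.117). *Retnla* and *Arg1*, customary IL-4 targets, did not pass (adjusted p = 0.519 and 1). No neuropeptide receptor gene passed of 5 tested. *Ramp1*, a subunit of the CGRP receptor, was at 74.1, 55.9 and 76.2 against 37.2, 23.2 and 17.4 CPM (log2FC = 1.41 ± 0.46 (SE), adjusted p = 0.0923). *Calcrl*, its partner, was at 23.6, 36.8 and 22.7 against 59.3, 39.1 and 42.9 CPM (log2FC = −0.78 ± 0.29 (SE), adjusted p = 0.168). The groups did not overlap for either, and the directions were opposite. None of 16 genes that respond to tissue dissociation passed, although *Jun* and *Ier3* were called lower without CD11c- library 1 (adjusted p = 0.0476 and 0.0216), with a median log2FC of −0.29 and summed levels of 19224 to 23069 CPM in CD11c+ and 25233 to 28097 CPM in CD11c- libraries. Their part in the result was not tested.

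**Figure D4:**
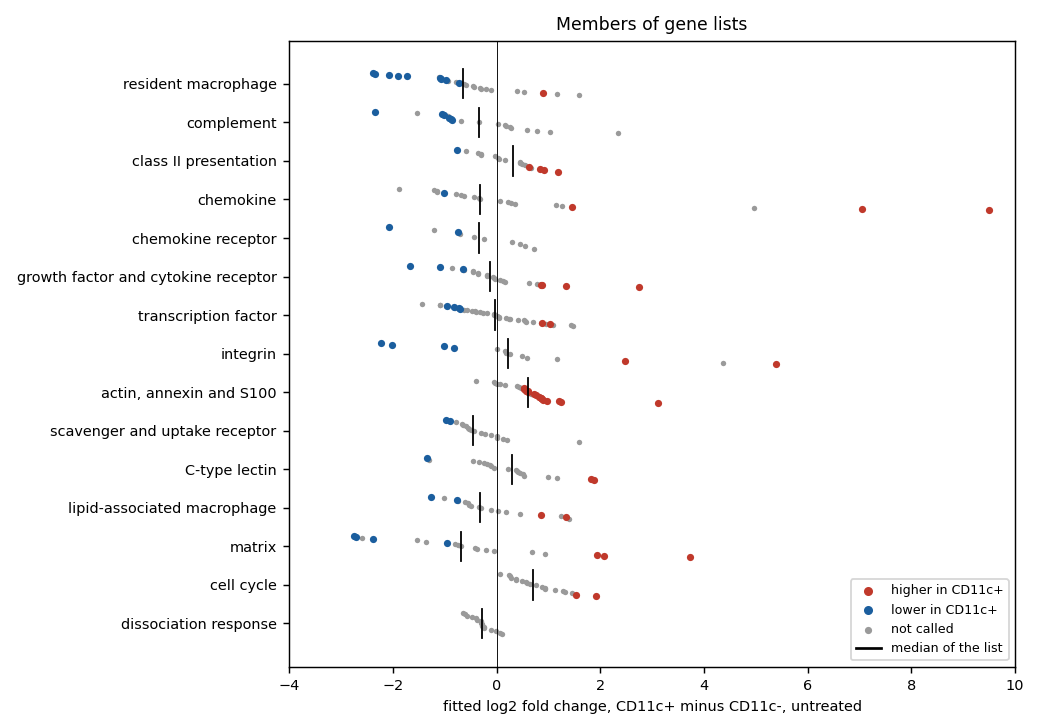
Fitted log2 fold change (CD11c+ minus CD11c-, horizontal axis) of the tested members of 15 gene lists (rows), with red for genes called higher, blue for genes called lower, grey for genes not called and a black line at the list's median. Actin, annexin and S100 genes had 16 calls, all higher, and resident macrophage genes 9 lower and 1 higher; fitted values of genes at the floor in a group are no bound.

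The same 2 sorts were also sequenced 8 h after IC, in 6 libraries that share no sample with those above. There 300 genes (2.84%) differed, 187 higher and 113 lower in CD11c+ macrophages. Of these, 160 were also called without treatment, 43.5% of the untreated calls and 53.3% of the calls after IC, and 159 of the 160 had the same direction. Of the 368 genes called without treatment, 347 (94.3%) had the same direction after IC, against 6568 (62.3%) of the 10550 genes tested. *Itgax* had a log2FC of 2.96 after IC (adjusted p = 0.000147), *Vsig4* −2.02 (adjusted p = 1.29e-05), *Cx3cr1* −1.48 (adjusted p = 0.000122) and *Rras2* 2.58 (adjusted p = 0.000131). Dendritic cell genes called in both conditions included *Flt3* (adjusted p = 0.0178), *Cd209a* (2.07, adjusted p = 0.00276), *Tnip3* (2.37, adjusted p = 0.002) and *Naaa* (1.42, adjusted p = 1.88e-05). *Dpp4*, *Gpr132*, *Cadm1* and *Cd24a* were not called after IC (adjusted p = 0.553, 0.865, 0.898 and 0.215). Counts summed to 381217, 245903 and 973951 in the CD11c- libraries after IC, against 837439 to 985186 in those without treatment. The part of depth in the missing calls was not tested. A test of the difference between conditions, as an interaction in the same fit, called 1 gene (0.00948%), *Akap11*, chosen after its values were seen, and 642 genes had an unadjusted p under 0.05. No gene called in 1 condition alone was therefore shown to differ between conditions.

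**Figure D5:**
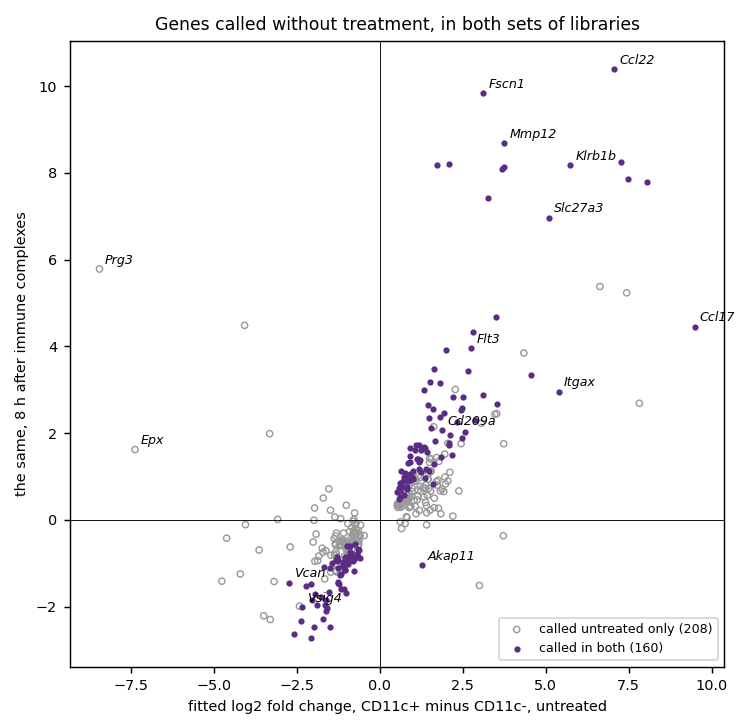
Fitted log2 fold change between CD11c+ and CD11c- macrophages without treatment (horizontal axis) and 8 h after IC (vertical axis) of the 368 genes called without treatment. Filled points are the 160 genes called in both conditions and open points the 208 called without treatment only; 347 lie on the same side of 0 on both axes, and *Akap11* is the gene called in both with opposite directions.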

How the data were processed

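Raw gene counts deposited for 18 libraries of synovial macrophages were used, with the 6 untreated MHCII+ libraries as the comparison. Per the labels and the study's methods, RNA from sorted cells was made into libraries with the SMARTer Stranded Total RNA-seq Pico kit and sequenced as paired ends on an Illumina instrument. The authors removed 3 bases from the start of read 1, trimmed adapters with Trim Galore, used HISAT2 for alignment to the mm10 genome, and featureCounts for the count of reads per gene. The annotation, the strand setting and the treatment of reads with several matches are not given in the sources used here, so that antisense and duplicated genes may share reads. All 24421 gene symbols and every count column were mapped to samples, leaving 0 columns of no sample.

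The counts were filtered with edgeR's filterByExpr (minimum count 10, minimum total 15), which left 10550 genes, scaled by TMM and tested with the quasi-likelihood test of edgeR 4.0.16 in R 4.3.3, with 1 coefficient for each of 6 groups. P-values were adjusted by Benjamini-Hochberg over all genes tested, 0.05 being the threshold, and a standard error is the log2 fold change divided by the root of its F value. A group was at the floor where each library had at most 3 counts, and "at least" folds set that group at 3 counts per library. No use of molecular identifiers is described in the sources used here, so that floors cover counting error only. No source states that the 3 pools of a group were prepared on separate days, and p-values measure the spread between these pools. The genes named were the 3 markers; the 15 highest and 15 lowest fold changes among called genes without overlap between groups whose log2 CPM averaged 3 or more; the 10 smallest p-values in each direction; and members of 33 gene lists (506 genes, 7 of them not matched here). Of the genes these parts of the rule took in, those that bear on a result are described, and a few are not reported here. Members and lists were chosen with earlier results of these data known. Akap11, Prg3, Lyz1, Cx3cl1 and Mcm7 were chosen after their values were seen. Alternatives were DESeq2 1.42.0 (Wald test, and its size factors), no filter or a stricter one, only the compared libraries, a replicate block, 1 surrogate variable (sva 3.50.0), the ribosomal RNA precursor Rn45s left out and each library left out in turn. The scripts were tested on simulated data. Gene coordinates and promoters came from RefSeq on GRCm38.p6, where 95.0% of symbols matched.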

Additional observations from a re-analysis of the deposited data

Results flagged for a closer look

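*Akap11* (chromosome 14, 78492246 to 78536980, GRCm38.p6), an anchoring protein for protein kinase A, was the gene for which the difference between CD11c+ and CD11c- macrophages differed between conditions. Without treatment it was at 59.4, 73.0 and 60.3 CPM in CD11c+ and 26.7, 29.3 and 23.5 CPM in CD11c- libraries, and every CD11c+ library was higher (log2FC = 1.27 ± 0.27 (SE), adjusted p = 0.00702). After IC it was at 32.4, 36.2 and 21.9 CPM in CD11c+ and 75.8, 52.7 and 56.1 CPM in CD11c- libraries, and every CD11c+ library was lower (log2FC = −1.04 ± 0.29 (SE), adjusted p = 0.0484). The difference of the fold changes was −2.32 ± 0.40 (SE, adjusted p = 0.0454). The call of the difference was lost without Rn45s, with only the compared libraries, with a replicate block and in 10 of the 12 fits that left out 1 library, and the untreated call was lost without CD11c- library 3 (adjusted p = 0.0529). It was chosen after its values were seen, and its cause was not tested.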

How the results depend on the processing

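Counts of called genes moved more than directions. The 368 calls (199 higher, 169 lower) became 581 (312 and 269) with DESeq2's Wald test, 578 (314 and 264) without a filter on low counts and 580 (296 and 284) with 1 surrogate variable. Leaving out 1 of the 6 compared libraries gave 185 to 422 calls (88 to 237 higher, 97 to 185 lower), and leaving out the shallowest IC library of the CD11c- sort, added after seeing the data, gave 609 (329 and 280). The 16 calls among dendritic cell, monocyte and neutrophil genes became 39 without a filter, 9 with at least 10 counts required in each compared library, 10 to 21 with 1 compared library left out and 26 without the shallowest library. After IC the 300 calls became 472 with the Wald test, 465 without a filter, 106 in a fit of only those libraries and 173 to 314 with 1 left out. The interaction, 1 call, gave 29 without a filter, 0 with only the compared libraries, 0 with a replicate block, 0 without Rn45s, and 0 to 1 with 1 library left out. The log2FC of *Epx*, which was at the floor in the CD11c+ sort, ranged from −10.12 to 2.79 with 1 library left out and reversed without CD11c- library 1 (2.79). Other scalings and filters left each count within 1.5 times and the median log2FC of all genes within −0.02 to 0. Whether the replicate numbers pair the samples was not settled. Same-numbered untreated libraries of the 2 sorts correlated at 0.132, 0.055 and 0.007 in their deviations from the group means. Differently numbered ones correlated at −0.13 to 0.078. After IC the values were 0.022 to 0.094 for the same number and −0.057 to 0.015 for different numbers. The replicate block gave 399 calls (221 and 178). Depth was lower in each CD11c- library, which limits what can be said of genes near 0 there. The cause of these changes was not tested.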

Other observations

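Families outside the lists, chosen after their values were seen, are described here without a test. Over all genes tested 1.89% were called higher without treatment, and 128 of the 3517 most abundant genes were. Of 81 genes of cytosolic ribosomal proteins tested, 7 were called higher and none lower in untreated CD11c+ macrophages, with fitted values above 0 for 79 and a median log2FC of 0.40. Their summed level was 37659, 38070 and 40208 CPM in CD11c+ and 30364, 30789 and 29026 CPM in CD11c- libraries, so that the sorts did not overlap. After IC 1 of them was called and the median was 0.24. Ribosomal protein genes have many processed copies, and reads may be split among them.

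Of 63 replication-dependent histone genes, whose transcripts lack a poly(A) tail and are seen in total RNA libraries, 4 were called higher and none lower, 61 had fitted values above 0, and the median log2FC was 0.94. The summed level was 10664, 9130 and 7210 CPM in CD11c+ and 8186, 3049 and 4268 CPM in CD11c- libraries, with overlap through CD11c- library 1. After IC none was called and the median was 0.35. Among the genes of the replicative helicase, *Mcm2* to *Mcm7*, 2 of 6 were called higher, *Mcm7* at 56.2, 78.2 and 60.8 CPM in CD11c+ against 17.4, 20.8 and 8.17 CPM in CD11c- libraries (log2FC = 2.08 ± 0.34 (SE), adjusted p = 0.000598), a call made in each of the 6 fits that left out 1 library.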
